A study of Mus musculus with 2 samples.

Results

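Areg and Ereg encode amphiregulin and epiregulin, a pair of secreted growth factors that activate the epidermal growth factor (EGF) receptor, and their genes lie next to each other on mouse chromosome 5. Their rows were taken by gene symbol from the deposited tables, and they are 2 of the 1448 genes listed there. RNA from small intestinal organoids was sequenced in 1 library per genotype. Such cultures grow from isolated crypts in a gel of matrix proteins and contain the stem, Paneth and differentiated cells of the epithelium. AdipKO stands for Adipfl/flpVilli-CreT mice, in which villin promoter sequences drive Cre in the intestinal epithelium and Cre deletes the floxed adiponectin gene there. WT stands for Adipfl/fl mice, which have the floxed gene but lack Cre. The medium of both cultures held EGF at 50 ng/ml, R-spondin at 500 ng/ml and the inhibitor Noggin at 100 ng/ml, so an EGF receptor ligand was supplied to both genotypes from outside. Nothing in the sources used here gives the age or number of the mice behind each library.

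The EGF receptor ligands are made as membrane-anchored precursors, and metalloproteases such as ADAM17 cut them loose to act on the same or neighbouring cells. The receptor EGFR pairs with itself or with the related receptors ERBB2, ERBB3 and ERBB4, and signals through RAS and the kinases RAF, MEK and ERK. Amphiregulin binds EGFR alone and with low affinity, whereas epiregulin and betacellulin also bind ERBB4. In the intestinal crypt, EGF receptor signalling drives division of stem cells and their progeny, and amphiregulin and epiregulin are known for their part in epithelial repair after injury.

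The values are estimated read counts, 1 per gene and library, without scaling to library size. No gene in the tables had a log2 ratio of counts between -1.04 and 0.96, so the tables appear to be a selection at about 2-fold. Genes that the tables leave out were not analysed here. Summed counts were 689005 for AdipKO and 802995 for WT, which are totals of a selection and not library depths. Making these totals equal would add 0.22 to each log2 ratio and turn no direction. Adipoq, the targeted gene, is not in the tables, so the labels alone give the genotypes, and if they had been exchanged all directions below would turn. Below, AdipKO and WT mean the libraries so labelled. The study's text names Ascl2, Lgr5, Lyz1, Mycl, Olfm4 and Tnfrsf19 as stem cell markers raised in AdipKO organoids, from sequencing and from qRT-PCR. Each of these genes is listed, and each had fewer reads in the library labelled AdipKO, opposite to that text. Reads (AdipKO against WT) were 3127 against 7858 for Lgr5, 34083 against 92810 for Olfm4 and 16698 against 34709 for Lyz1. They were 1021 against 2341 for Tnfrsf19, 540 against 1234 for Mycl and 174 against 511 for Ascl2. In the tables, 7 of 13 crypt base stem cell genes were listed, and the library labelled AdipKO had the lower count in all 7, as it did for 62.2% of all listed genes. Given this disagreement with the study's text, the directions below for Areg and Ereg hold only as labelled. Whether the labels were exchanged was not tested. With 1 library per genotype there is no replicate error, no test between genotypes and no p-value. Intervals are 95% exact intervals for counting error, and variation between cultures or mice lies outside them.

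The Areg promoter is shown first, beside that of Btc, because Btc, the gene of betacellulin, is the third EGF receptor ligand gene in the tables and its promoter serves for comparison. Areg (NCBI gene 11839) spans chromosome 5 from 91139599 to 91148432 in GRCm38.p6, the assembly behind the mm10 build named in the labels, on the plus strand. Its single GENCODE transcript has 6 exons and 1215 bases, of which 744 are coding, 215 lie in the 5′ UTR and 256 in the 3′ UTR. Ereg (NCBI gene 13874) spans 91074617 to 91093649 on the same strand. Its single GENCODE transcript has 5 exons and 4128 bases, of which 486 are coding and 3504 lie in the 3′ UTR. The 250 bases before the Areg start are chr5:91139349-91139598 (plus strand), and those before the Btc start are chr5:91402995-91403244 (minus strand), both from RefSeq and written 5′ to 3′ with matches to the cAMP response element (CRE) and the TATA box in capitals.
Areg: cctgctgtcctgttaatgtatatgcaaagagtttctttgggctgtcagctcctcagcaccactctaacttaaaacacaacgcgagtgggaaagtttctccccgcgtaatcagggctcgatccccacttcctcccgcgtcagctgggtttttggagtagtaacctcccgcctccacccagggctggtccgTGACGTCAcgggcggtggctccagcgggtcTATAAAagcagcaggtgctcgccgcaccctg
Btc: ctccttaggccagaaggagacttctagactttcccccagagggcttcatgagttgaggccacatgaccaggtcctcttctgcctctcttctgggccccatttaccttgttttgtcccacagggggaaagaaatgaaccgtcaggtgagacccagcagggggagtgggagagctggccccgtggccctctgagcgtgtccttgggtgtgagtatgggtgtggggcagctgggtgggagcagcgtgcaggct
The RefSeq promoter table held Areg, Btc and Epgn (epigen) among the EGF receptor ligand genes of the cluster, and no entry for Ereg.

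The Areg window held the full palindromic CRE, TGACGTCA, 61 to 54 bases before the start, and a TATA box, TATAAA, 31 to 26 bases before it. The CRE is the binding motif of CREB and related ATF factors, and the TATA box positions the start of transcription. Over all 32851 RefSeq windows of this length, searched on both strands, 508 (1.55%) held the CRE, 4063 (12.4%) the TATA box and 39 (0.119%) both. The Btc window held neither of them. Neither window held the AP-1 motif TGANTCA (in 6.75% of all windows), the TEAD motif GGAATG (12.6%) or the antioxidant response element TGACNNNGC (10.2%). The xenobiotic response element core GCGTG (28.2%) was not in the Areg window and occurred at 2 positions in the Btc window. Of 1136 listed genes with a promoter window, 17 (1.5%) held the CRE, and of these 4 were higher and 13 lower in the AdipKO library, where 37.8% of all listed genes were higher and 62.2% lower. Besides Areg, Fscn1 and Mturn were the listed genes with both a CRE and a TATA box, and both had fewer reads in the AdipKO library, 5 against 16 and 7 against 25. A match is a description of the letters and not evidence that a factor binds there.

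Areg had the highest level per kb of the listed EGF receptor ligand transcripts and the highest ratio between the genotypes, although its interval overlapped that of Ereg. It had 9080 reads in AdipKO organoids (counting interval 8894 to 9269) and 1537 in WT organoids (1461 to 1616). The AdipKO value was therefore 5.91-fold that of WT (5.60 to 6.24), a log2 ratio of 2.56 with a pseudocount of 1. In RNA from whole organoids, more cells that express a gene and more RNA per cell cannot be told apart. Per kb of transcript, Areg had 7473 reads in AdipKO organoids and 1265 in WT organoids. On this per-length scale Areg ranked 10th among the 1394 listed genes of known length in AdipKO organoids and 61st in WT organoids.

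Ereg showed the same direction at a lower level per kb. It had 602 reads in AdipKO organoids (counting interval 555 to 652) and 122 in WT organoids (101 to 146), 4.93-fold higher (4.06 to 6.04), with a log2 ratio of 2.29. Per kb of transcript this was 146 reads against 29.6, which ranked 296th in AdipKO organoids and 667th in WT organoids. Counts of both genes were whole numbers, as were those of 1239 of the 1448 listed genes, so neither carries the fractional counts that arise when reads are divided between similar genes.

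Both genes stood at least 4-fold higher in the AdipKO library, as did 144 of the 1448 listed genes (9.94%), while 511 (35.3%) were at least 2-fold higher and 901 (62.2%) at least 2-fold lower. The genes were chosen on this same contrast, so nothing follows from their place in it. By log2 ratio from the highest, Areg ranked 60th and Ereg 90th of 1448, and among the 657 genes with at least 100 reads in the higher library they ranked 17th and 31st. If the labels had been exchanged, these ranks would count from the lowest ratio and the shares of higher and lower genes would change places. Of the 59 genes above Areg in the whole table, 43 had fewer than 100 reads.

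**Figure D1:**
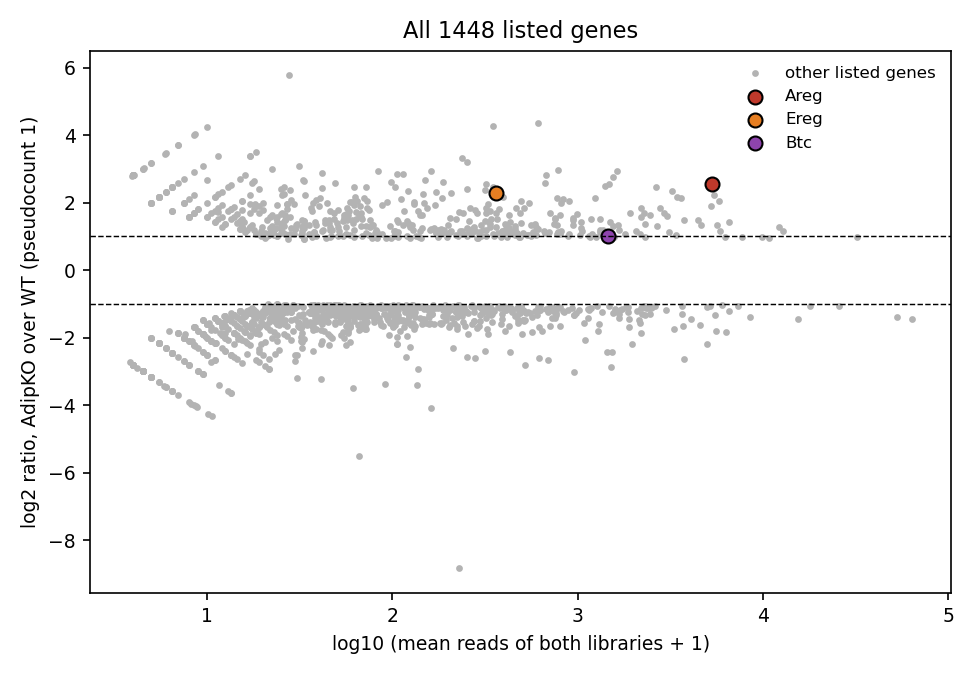
Each point is 1 of the 1448 listed genes, with the log10 of its mean reads in both libraries (plus 1) on the horizontal axis and its log2 ratio, AdipKO over WT with a pseudocount of 1, on the vertical axis. Dashed lines mark 2-fold, and the band between them holds 36 genes, all of them higher, from 0.92 upward, with Areg (2.56), Ereg (2.29) and Btc (1.02) coloured.

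The balance between Areg and Ereg differed between the libraries by less than the counting error. Within the AdipKO library Areg had 15.1 reads for each Ereg read (13.9 to 16.4), and within the WT library 12.6 (10.5 to 15.3). Corrected for transcript length these values were 51.2 (47.2 to 55.7) and 42.8 (35.6 to 51.9) per kb. These within-library ratios do not depend on how the libraries are scaled to each other. The Areg ratio between genotypes was 1.20 times the Ereg ratio, with an interval from 0.970 to 1.47 (conditional exact interval), so a difference between both fold changes was not detectable at this depth.

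Btc was higher by a smaller factor than its neighbours. It had 1945 reads in AdipKO organoids (1860 to 2033) and 958 in WT organoids (898 to 1021), 2.03-fold higher (1.88 to 2.20), which is close to the smallest ratio the tables hold. The Areg ratio was 2.91 times the Btc ratio (2.64 to 3.20) and the Ereg ratio was 2.43 times the Btc ratio (1.97 to 3.02), by counting error alone. Per kb of transcript Btc had 676 reads in AdipKO organoids and 333 in WT organoids. Per kb, the order was Areg, Btc and Ereg in both libraries, and the counting intervals of neighbours in this order did not overlap. Areg made up 90.1% of the summed reads per kb of these 3 ligands in AdipKO organoids and 77.7% in WT organoids. Btc made up 8.15% and 20.5%, and Ereg 1.76% and 1.82%. The summed level of the 3 ligands was 8295 reads per kb against 1628.

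**Figure D2:**
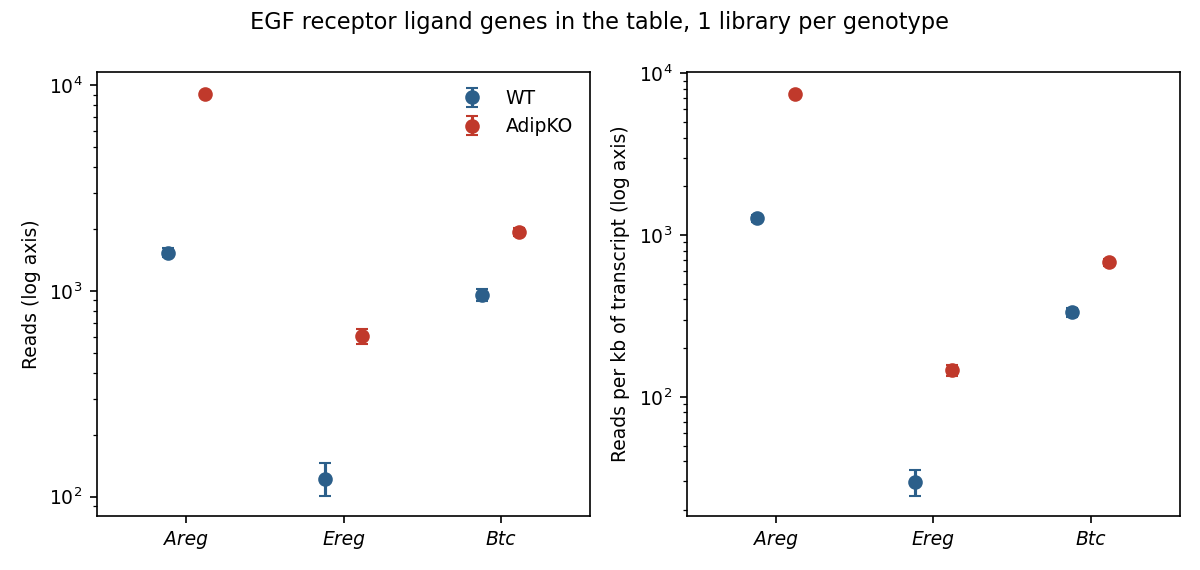
Reads (left) and reads per kb of transcript (right), both on log axes, for the 3 EGF receptor ligand genes in the tables, with WT in blue and AdipKO in red and 1 library each. Bars are 95% exact Poisson intervals of the count, and the AdipKO point lies above the WT point for each gene, with 9080 reads against 1537 for Areg and 602 against 122 for Ereg.

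Of the 7 EGF receptor ligand genes of the mouse, 3 were listed, all 3 at least 2-fold higher, against 35.3% of all listed genes. Areg and Ereg, chosen on this contrast, are among them, and the median log2 ratio of 2.29 is the value of Ereg. Over all listed genes the median was -1.15. Egf, Tgfa, Hbegf and Epgn, the genes of the other ligands, were not in the tables. None of the 4 neuregulin genes, which encode ligands of ERBB3 and ERBB4, was listed. On the receiving side, none of the 4 receptor genes Egfr, Erbb2, Erbb3 and Erbb4 was listed. Nor was any of 10 genes of ligand processing, among them Adam17 and Rhbdf2, or any of 17 genes of signal transduction from adaptors to ERK. Of 27 response genes of ERK and EGF signalling, such as Fos, Egr1, Etv4, Etv5, Myc and Phlda1, 0 were listed. The levels of these genes were not analysed here.

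The 3 listed inhibitors of the pathway were lower in the AdipKO library, as were most listed genes. Of 22 genes of ERBB and ERK feedback inhibition, 3 were listed and all 3 were lower by at least 2-fold in the AdipKO library, as were 62.2% of all listed genes, with a median log2 ratio of -1.09. Lrig1, a membrane protein that promotes the breakdown of ERBB receptors and marks stem cells of the crypt, had 3194 reads (AdipKO) against 6811 (WT), 2.13-fold lower (2.04 to 2.22). Dusp1, a phosphatase of mitogen-activated kinases, had 45 reads against 100, 2.22-fold lower (1.55 to 3.23). Spred3, a member of a family of RAF-ERK inhibitors, had 27 reads against 58, 2.15-fold lower (1.34 to 3.53). Both of these rest on few reads, while Lrig1 is well counted. Lrig1 is also a stem cell marker, and stem cell genes were lower in the same library, with Olfm4 at 34083 against 92810 reads, Axin2 at 2181 against 5979, Msi1 at 269 against 748 and Ascl2 at 174 against 511. The part of stem cell content in the Lrig1 value was not tested.

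The genes around Areg and Ereg that were listed were all higher in the AdipKO library. No protein-coding gene lies in the 45.95 kb between the end of Ereg and the start of Areg, and none between Areg and Btc, whose annotated span begins 217.7 kb after the Areg start. Counting each gene from its lower coordinate, RefSeq has 27 protein-coding genes within 1 Mb of Areg or Ereg, of which 7 were listed. Besides Areg and Ereg these were Btc, Cxcl5, Alb, Afp and Afm, and all 5 were higher, against 37.8% of all listed genes and 37.4% (34 of 91) of those on chromosome 5. Alb, which encodes serum albumin, had 155 reads against 55, 2.82-fold higher (2.06 to 3.91). Afp, which encodes alpha-fetoprotein, the albumin of the fetus, had 428 reads against 211, 2.03-fold higher (1.72 to 2.40). Afm, the gene of the vitamin E carrier afamin, had 16 reads against 5, a ratio of 3.20 with an interval from 1.12 to 11.2. These albumin family genes lie 621 to 679 kb before the Areg start.

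Cxcl5, a chemokine that attracts neutrophils, lies 380 kb before Areg and had 18 reads in AdipKO organoids and 0 in WT organoids, at least 6-fold higher when the 0 is set to a floor of 3 reads, while the exact interval used for the other genes starts at 4.40. The other chemokine genes between Cxcl5 and Ereg, such as Cxcl1, Cxcl2 and Cxcl3, were not in the tables, nor were Epgn and Mthfd2l. The next listed gene after Btc, the interferon-induced chemokine gene Cxcl10, 1.21 Mb after the Areg start, was lower at 7 reads against 21. On the other side, the run of listed genes that were higher went on without a break through genes of sulfotransferases and UDP-glucuronosyltransferases. This run held 13 listed genes in a row over 14.7 Mb, Areg, Ereg and Btc included, and beyond it Kit was lower at 344 reads against 863. Genes of this stretch that the tables leave out were not analysed, so the run does not describe the stretch as a whole. Of the 24 genes written down for the chemokine and ligand cluster, 5 were listed, 4 higher and 1 lower. The 4 include Areg and Ereg, which were chosen on this contrast, and 37.8% of all listed genes were higher.

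**Figure D3:**
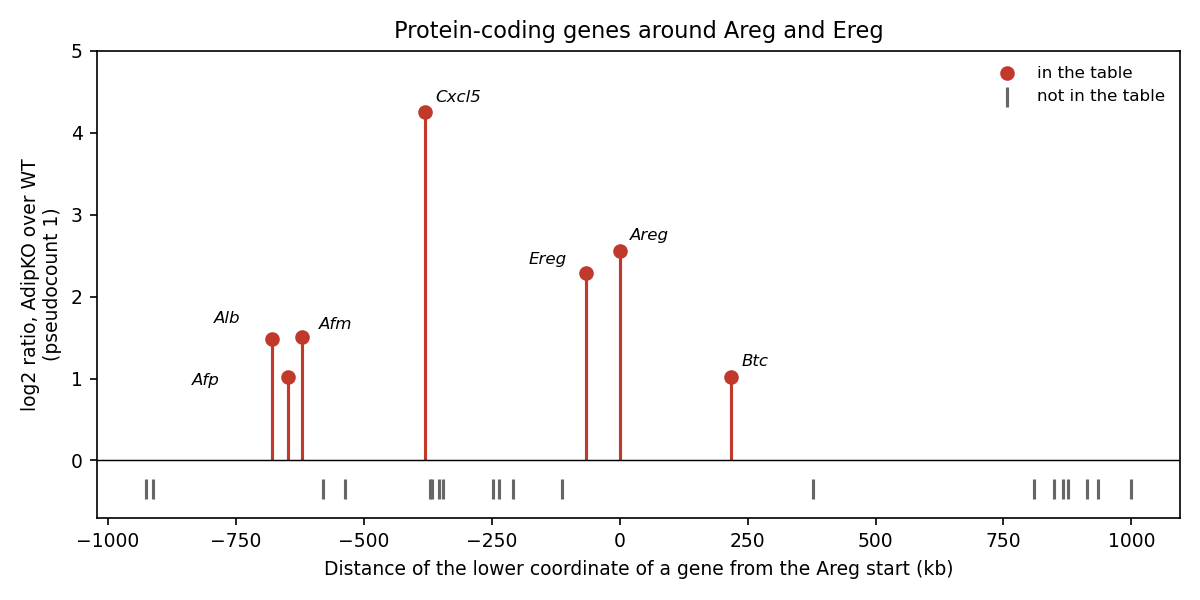
The log2 ratio, AdipKO over WT with a pseudocount of 1, of the 7 listed genes within 1 Mb of Areg or Ereg, against the distance of each gene's lower coordinate from the Areg start in kb. Grey ticks mark the 20 protein-coding genes of this window that were not in the tables, and all 7 listed genes lie above 0, from 1.02 for Afp and Btc to 4.25 for Cxcl5.

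Among well counted genes, those with ratios most like that of Areg were Dmbt1, Sult1c2 and Fam129a. Likeness is here the distance in log2 ratio over the 2 libraries, among genes with at least 100 reads in the higher one. Dmbt1, which encodes a secreted mucosal scavenger protein, had 547 reads against 92, Sult1c2, a sulfotransferase, had 2524 against 432, and Fam129a had 1143 against 190. All 3 lay within 0.021 log2 units of Areg. The genes most like Ereg were Jdp2, a repressor of AP-1 factors, with 342 reads against 69, Stbd1, a glycogen-binding protein, with 287 against 57, and the sulfotransferase gene Sult1b1 with 621 against 128. Stbd1 and Sult1b1 also lie on chromosome 5, 1.46 Mb after and 3.63 Mb before the Areg start. With 2 libraries a shared ratio is a weak form of likeness, and 75 other listed genes have a ratio within the counting interval of Ereg.

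Areg and Ereg are known targets of the Hippo effector YAP and markers of a regenerative, fetal-like epithelium. The listed members of those lists went both ways. Of 14 Hippo and YAP genes 3 were listed, and their median log2 ratio was -1.32. Ccn2, a YAP target that encodes a matrix protein, had 32 reads against 109, 3.41-fold lower (2.28 to 5.22), and Tead2, a DNA-binding partner of YAP, had 197 against 492, 2.50-fold lower (2.11 to 2.96). Axl, a receptor kinase, had 70 reads against 31, 2.26-fold higher (1.46 to 3.57). Of 15 genes of the regenerative epithelium 2 were listed, both higher on few reads, against 37.8% of all listed genes. Gja1, a gap junction protein, had 34 reads against 15, 2.27-fold higher (1.20 to 4.48), and Spp1, the matrix protein osteopontin, had 9 reads against 1. Clu, Ly6a and Anxa1, which are markers of that state, were not in the tables.

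The listed members of a pair of stress response lists had more reads in the AdipKO library, as did Areg and Ereg. Of 14 genes of the ATF4 and CHOP response 5 were listed, all 5 at least 2-fold higher, against 35.3% of all listed genes, with a median log2 ratio of 2.14. Ddit3, which encodes CHOP, had 1187 reads against 167, 7.11-fold higher (6.04 to 8.41). Nupr1, a stress-induced regulator of transcription, was 5.07-fold higher (4.75 to 5.42), and Trib3, a pseudokinase induced by CHOP, was 4.43-fold higher (3.89 to 5.06). Chac1, which breaks down glutathione, was 2.56-fold higher (2.19 to 2.99), and Slc7a11, a cystine transporter, 2.18-fold higher (2.06 to 2.30). Slc7a11 is also among the NRF2 targets that follow and is counted in both lists. Of 15 NRF2 targets, genes of the response to oxidants and electrophiles, 10 were listed and all 10 were higher, against 37.8% of all listed genes, 8 of them at least 2-fold with the pseudocount, with a median of 1.68. Nqo1, a quinone reductase, had 2385 reads against 425, 5.61-fold higher (5.06 to 6.24), and Cbr3, a carbonyl reductase, had 2712 against 399, 6.80-fold higher (6.12 to 7.57). Gsta2 and Gsta1, glutathione transferases, were 19.7-fold (13.8 to 28.4) and 4.51-fold higher (4.24 to 4.80), in fractional counts that similar genes share. Their part in the Areg and Ereg values was not tested, and these lists were written with the direction of several members known.

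**Figure D4:**
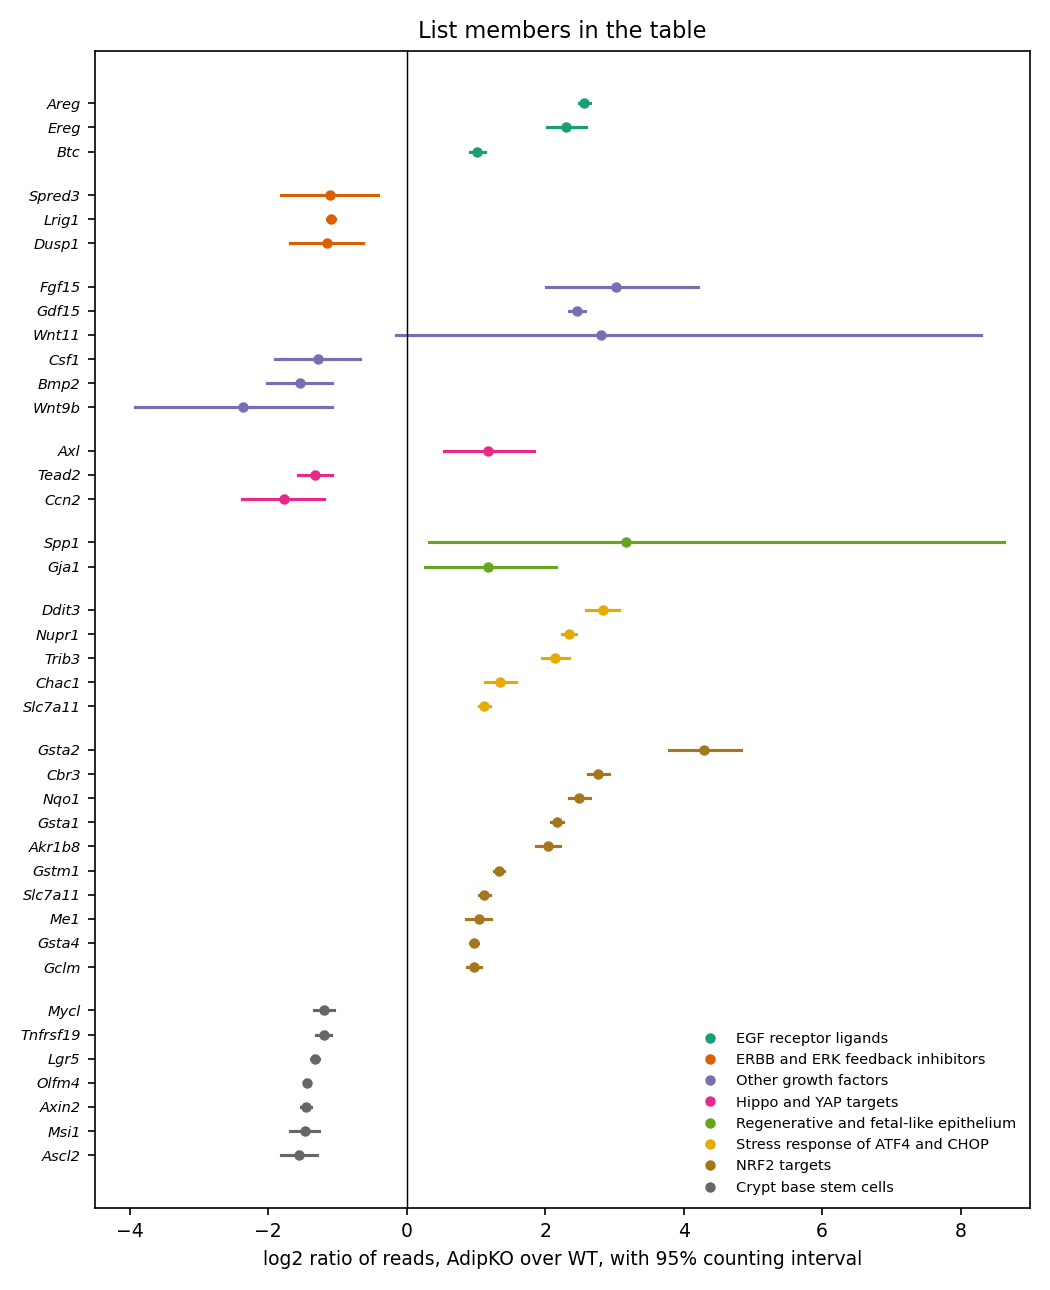
Listed members of 8 gene lists, with the log2 ratio of reads, AdipKO over WT without a pseudocount, as points and the 95% exact counting interval as bars. The 3 ligand genes, 5 ATF4 and CHOP genes and 10 NRF2 targets lie right of 0, and the 3 feedback inhibitors and 7 stem cell genes lie left of it. Slc7a11 belongs to both the ATF4 and CHOP list and the NRF2 list and is plotted in each.

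Markers of cells outside the epithelium were few in the tables. Amphiregulin can also come from immune and stromal cells. The tables appear to be a selection at about 2-fold, so a marker that is not listed may still be expressed. These lists therefore cannot show which cells the reads came from. Of 12 fibroblast genes, Vim was listed and was lower, at 109 reads against 322. Of 15 immune genes 2 were listed, with Itgam at 57 against 25 reads and Kit at 344 against 863, and their summed reads were 401 and 888. Of 9 endothelial and glial genes 2 were listed, with Lyve1 at 211 against 68 and S100b at 24 against 5, together 235 and 73. The defining markers Ptprc, Col1a1 and Pecam1 were not in the tables, and none of the 12 markers of intestinal epithelium, such as Vil1 and Epcam, was listed, so the labelled tissue could not be checked against them. The part of other cells in the Areg and Ereg values was not tested.

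The share of higher genes moved with base composition over the whole table. With the listed genes split into 4 groups by rising GC content of the transcript, the share with more reads in the AdipKO library was 61.3%, 36.2%, 31.3% and 23.8%. Ereg, with a GC content of 39.2%, belongs to the lowest group, and Areg, with 48.4%, to the next. The part of base composition in their values was not tested.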

How the data were processed

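Organoid RNA was sequenced by BGI (MGISEQ-2000, paired-end), with mm10 as the genome build per the labels. Alignment and quantification were run on the sequencing provider's platform, per the study's methods, which describe levels as FPKM, whereas the deposited columns are headed as read counts. The names of the aligner, counting program and annotation are not given in the sources used here. Values deposited by the authors are estimated counts of reads per gene, unscaled, for the same 1448 genes in both libraries, selected as it appears by a fold change of about 2. Total depth was therefore not used, and ratios were taken on the deposited counts.

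Log2 ratios of AdipKO over WT used a pseudocount of 1. Ratios of 2 counts carry exact (Clopper-Pearson) 95% intervals after rounding, single counts exact Poisson intervals, and a 0 was set to 3 counts for a bound. Reads are not independent molecules. The interval code was tested on simulated data. Lengths and GC content came from GENCODE M21 protein-coding transcripts (median per gene) and promoters and coordinates from RefSeq GRCm38.p6, which matched 1436 of 1448 gene IDs. Python 3.11.15, pandas 2.3.3, NumPy 2.4.6 and SciPy 1.17.1 were used.

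The members and gene lists were chosen with earlier results of these data known. Named genes were Areg, Ereg, listed members of the ligand, receptor and inhibitor lists, up to 4 members of each other list by absolute log2 ratio with at least 10 counts, the 3 genes nearest in ratio to each member, and listed genes within 1 Mb. Spp1, Csf1, Wnt11, Slc7a11, Cxcl10, Fscn1, Mturn, Lgr5, Tnfrsf19, Mycl, Lyz1 and genes named as not listed fall outside this rule. Alternatives covered the pseudocount (0.1 and 5), the scaling, the fold threshold, the count floor, whole counts only, length correction and the mean of a list.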

Additional observations from a re-analysis of the deposited data

How the results depend on the processing

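No paired analysis was possible because there was 1 library per genotype, and for the same reason no replicate could be left out. Depth was unknown, so the scaling between libraries rests on the deposited counts. Among 39 alternative values, 24 lay within the counting interval or within 1.5 times the main share, 14 lay outside it and 1 turned its sign. For Areg and Ereg, the log2 ratio ranged from 2.56 to 2.78 and from 2.26 to 2.51 over the pseudocounts and scalings tried. Making the listed totals equal adds 0.22 to a log2 ratio and gave 2.78 for Areg. It gave list medians of -0.87 for the feedback inhibitors, 2.36 for the ATF4 and CHOP genes, 1.90 for the NRF2 targets and -1.22 for the stem cell genes. Reads per kb moved the Areg to Ereg ratio within a library to 51.2 in AdipKO and 42.8 in WT, by construction, since Ereg has the longer transcript. A threshold of 4-fold left 9.94% of listed genes higher. Taking list means, the values were 1.96 for the EGF receptor ligands, -0.63 for the Hippo and YAP genes, 1.96 for the ATF4 and CHOP genes, 1.91 for the NRF2 targets, -1.38 for the stem cell genes and 1.73 for the chromosome 5 cluster. With a floor of 10 counts, which drops Wnt11, the median of the other growth factors turned from 0.37 to -1.25.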

Other observations

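Growth factors outside the EGF family went both ways between the libraries. Of 28 such genes 6 were listed, 3 higher and 3 lower in the AdipKO library. Over all listed genes, 37.8% were higher and 62.2% lower. The median log2 ratio of the 6 genes was 0.37 and turned to -1.25 without Wnt11, which had fewer than 10 reads. Gdf15, a stress-induced hormone of the transforming growth factor family, had 4493 reads against 817, 5.50-fold higher (5.10 to 5.93). Fgf15, an enteric hormone induced by bile acids, had 73 reads against 9, 8.11-fold higher (4.05 to 18.4). Bmp2, a ligand that opposes stem cell expansion, had 52 reads against 151, 2.90-fold lower (2.11 to 4.06), and the Wnt ligand gene Wnt9b had 6 against 31, 5.17-fold lower (2.12 to 15.1). Csf1, a macrophage growth factor, had 33 reads against 80, and Wnt11 had 7 against 1.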
